A study of Danio rerio with 24 samples.

Results

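Zebrafish larvae (Danio rerio) exposed as embryos to 1.2 nM PCB126 were compared with larvae exposed to 0.3 nM, both as whole larvae at 5 days post-fertilization (dpf). PCB126 is 3,3’,4,4’,5-pentachlorobiphenyl, a dioxin-like polychlorinated biphenyl. The comparison was defined by the labelled dose and age, with 3 libraries at 1.2 nM and 3 at 0.3 nM, so it holds 6 of the 24 libraries of the series. The series also holds embryos at 48 hours post-fertilization (DMSO or 0.3 nM) and brains of adults at 4 months (DMSO, 0.3 or 1.2 nM). Both enter only the fits of all 24 libraries. The 3 libraries of DMSO larvae (solvent alone, same age) are not in the contrast. They entered the estimate of the spread between libraries, the filter on low counts and the scaling of the libraries. Exposure was of embryos in Danieu's solution, with DMSO or PCB126 added, and the fish were later kept in clean system water. The zebrafish strain, the hours of exposure, the time of day of collection and the number of larvae pooled per library are not stated in any source used here. No label gives a genetic alteration for any group. The series text calls the 3 libraries of a treatment biological replicates, and every p-value here measures the spread between such libraries.

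PCB126 binds the aryl hydrocarbon receptor (AHR), a transcription factor held in the cytoplasm by a complex that includes the chaperone HSP90 and the co-chaperone p23. The bound receptor enters the nucleus, pairs with ARNT and switches on genes of the CYP1 family of cytochrome P450 enzymes, the AHR repressor genes and others. In zebrafish, ahr2 is the receptor that carries most of the toxicity of dioxin-like compounds to embryos, which includes heart and vascular defects.

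At the 4-fold higher dose, larvae had more RNA of the cytochrome P450 gene cyp1c2 and of the clock-associated nuclear receptor gene rorcb. They had less RNA of plvapb, a gene of endothelial fenestrae, of HSP90AA1, an HSP90 chaperone gene, and of ftr69, a gene of the finTRIM family. These 5 genes, 2 higher and 3 lower, were the genes called (adjusted p under 0.05, edgeR quasi-likelihood test with Benjamini-Hochberg adjustment) of 21719 tested, or 0.023%. An unadjusted p under 0.05 was found for 993 genes, the called ones included, 477 higher and 516 lower. The log2 difference, 1.2 minus 0.3 nM, lay between -0.19 and 0.18 for the middle of the genes (10th to 90th percentile), and its median was -0.00093. It was at least 1 in size for 65 genes, 28 higher and 37 lower. The 3 and 3 levels did not overlap in 2109 genes, or 9.71% of those tested, 1085 higher and 1024 lower at 1.2 nM.

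**Figure D1:**
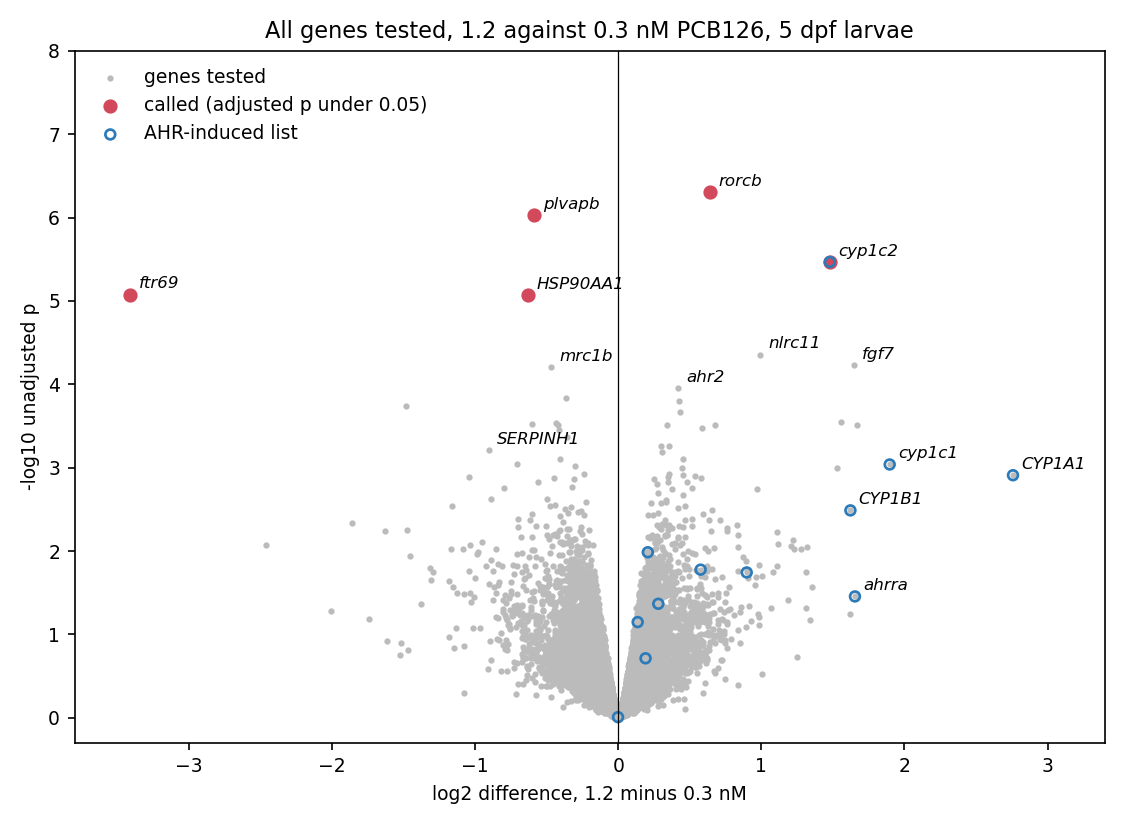
Log2 difference between 1.2 and 0.3 nM PCB126 (horizontal axis) against the -log10 of the unadjusted p (vertical axis) for each of 21719 genes tested in 5 dpf larvae. Red points are the 5 genes called and blue rings the 12 tested genes of the AHR-induced list, of which cyp1c2 is called while CYP1A1, with the highest positive log2 difference at 2.76, is not.

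Library totals of gene-assigned reads ran from 15564323 to 18668231 (0.3 nM), from 16831991 to 20662041 (1.2 nM) and from 12480715 to 14932821 (DMSO). No pair of libraries within a group agreed to within counting noise (chi-square per degree of freedom 2.5 to 13.2). Markers of the organs of a whole larva were present at both doses, as summed levels in CPM (counts per 1e6 reads of the normalized library size). The muscle markers ckma and actc1b summed to 15913 to 16692 CPM at 0.3 nM and 15517 to 16354 at 1.2 nM, and the neuron, photoreceptor, lens, liver, pancreas and cartilage markers also overlapped between the doses. The endothelial markers cdh5, kdrl and plvapb summed to 120.1 to 127 CPM at 0.3 nM and, without overlap, 104 to 112 at 1.2 nM; cdh5 and kdrl each overlapped, so the gap lay in plvapb. The summed oocyte and germ cell markers, at few reads, also did not overlap (2.204 to 2.81 against 1.44 to 2.17 CPM). Of these markers, buc and DDX4 each overlapped, and zp3b did not (0.86 to 1.24 against 0.577 to 0.718 CPM). The embryonic globin gene hbae1.1, an erythrocyte marker, had 0 reads in every larval library, while alas2 was at 18.2 to 27.0 and 19.8 to 23.1 CPM. In a principal component analysis of the 6 libraries, the first component (33.2% of the variance) set 1.2 nM replicate 2 apart, at 31.0 against -19.3 to 9.11 for the other 5. The second (19.2%) separated the doses, with scores of 2.19 to 15.7 at 0.3 nM and -16.6 to -3.92 at 1.2 nM. In RNA from whole larvae, fewer cells of a type and less RNA per cell cannot be told apart.

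The gene called among the AHR targets was cyp1c2 (ENSDARG00000101789), a P450 gene of the CYP1 family. Its level was 3.29, 3.76 and 3.50 CPM in 0.3 nM replicates 1, 2 and 3 and 13.4, 8.53 and 7.65 CPM in 1.2 nM replicates 1, 2 and 3. The DMSO larvae were at 2.61, 3.39 and 3.65 CPM, so the 0.3 nM libraries lay within or just above the DMSO range and every 1.2 nM library lay above both. Reads behind these levels numbered 58 to 65 at 0.3 nM and 159 to 224 at 1.2 nM. The gene rose 2.79-fold from 0.3 to 1.2 nM, a log2 difference of 1.48 with a standard error (SE) of 0.20 (95% confidence interval 1.05 to 1.91, adjusted p = 0.0247, edgeR quasi-likelihood test, 3 against 3). The call did not hold without 0.3 nM replicate 1, 2 or 3 (adjusted p = 0.332, 0.0994 and 0.228) or without DMSO replicate 2 or 3 (0.0574 and 0.0991). In an edgeR fit of the 6 exposed larval libraries alone it was lost too (adjusted p = 0.147).

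The closely related cyp1c1 (ENSDARG00000101195) had the larger log2 difference and was not called. The cyp1c1 level was 26.7, 37.2 and 25.0 CPM at 0.3 nM and 164, 92.2 and 73.8 CPM at 1.2 nM, against 19, 19.8 and 20.5 CPM in DMSO. The 3 treatments did not overlap, yet the 1.2 nM libraries spanned 2.23-fold among themselves. The log2 difference was 1.90 (SE 0.33, adjusted p = 0.64). How reads that fit both cyp1c genes were counted is not stated in the sources used here. Without 1.2 nM replicate 1, cyp1c1 was at 1.49 and passed the test (adjusted p = 0.0252).

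CYP1A1 (ENSDARG00000098315), the zebrafish cyp1a gene and the standard marker of AHR activation, showed the highest positive log2 difference of all genes tested. It stood at 75.3, 162 and 67.0 CPM at 0.3 nM, 1067, 578 and 411 CPM at 1.2 nM and 29.1, 27.1 and 30.0 CPM in DMSO. Every 1.2 nM library exceeded every 0.3 nM library, the lowest by 2.53-fold over the highest. Within a dose, though, the highest library was 2.6-fold above the lowest at 1.2 nM and 2.42-fold at 0.3 nM. The log2 difference was 2.76 (SE 0.49, 95% confidence interval 1.56 to 3.96, adjusted p = 0.669), so the gene was not called. CYP1B1 (ENSDARG00000068934), another P450 gene of the family, was at 5.99, 7.79 and 6.51 CPM at 0.3 nM and 32.9, 17.8 and 12.2 CPM at 1.2 nM, a log2 difference of 1.62 (SE 0.37, adjusted p = 0.975). The DMSO levels of CYP1B1, 5.63, 6.04 and 5.64 CPM, overlapped those at 0.3 nM and lay below all 3 at 1.2 nM. Without 1.2 nM replicate 1 or 3, CYP1B1 was at 1.15 or 1.90 and passed the test (adjusted p = 0.032 and 0.0463). Other fits did call these genes. CYP1A1 and cyp1c1 passed in edgeR without robust estimation (adjusted p = 0.0108 for both), CYP1A1 and CYP1B1 in the edgeR fit of all 24 libraries (0.0187 for both), and all 3 with DESeq2 (5.75e-05 for CYP1A1, 3.53e-05 for cyp1c1 and 0.0172 for CYP1B1).

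The AHR repressor genes, whose products compete with the receptor for ARNT, were covered by few reads. The ahrra level was 0.756, 1.82 and 0.377 CPM at 0.3 nM and 4.25, 3.87 and 1.01 CPM at 1.2 nM, from 7 to 28 reads and 21 to 73 reads a library. Replicate 3 at 1.2 nM fell below replicate 2 at 0.3 nM, so the doses overlapped, and the log2 difference was 1.65 (SE 0.65). The other repressor gene, ahrrb, was at 1.19, 1.49 and 0.538 CPM against 2.57, 1.96 and 1.44 CPM (0.90, SE 0.34), also overlapping, with DMSO at 1.01, 1.69 and 1.98 CPM. The tiparp gene, for an ADP-ribosyltransferase that represses AHR, was at 29.4, 28.0 and 26.6 CPM against 33.3, 32.5 and 31.1 CPM, a log2 difference of 0.21 (SE 0.07) without overlap. None of these 3 was called (adjusted p = 0.993 for each).

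None of the remaining members was called. The detoxification gene NQO1 stood at 0.14 (SE 0.07) with groups that did not overlap. The forkhead factor genes FOXQ1 and foxq1b were at 0.58 (SE 0.21) and 0.28 (SE 0.13), and the glutathione transferase genes gstp1.1 and gstp1.2 at 0.19 (SE 0.14) and -0.00 (SE 0.09), all overlapping. For wfikkn1, with at most 2 reads in a larval library, no test was made. Of the 12 AHR-induced genes tested out of 13, 1 was called (over all genes tested, 0.023% were called) and 11 had a positive log2 difference. In 6 the groups did not overlap, all higher at 1.2 nM. That is 50% of the 12 beside 9.71% of all genes, and their median was 0.74 beside -0.00093.

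The libraries of a dose differed in the same order for most genes of this list. Among the 12 genes, 1.2 nM replicate 1 was the highest of its group for 11, the exception being FOXQ1, and 0.3 nM replicate 2 was the highest of its group for 9. The 11 include gstp1.1, gstp1.2 and NQO1, whose dose differences were small (0.19, -0.002 and 0.14). How often these replicates were highest over all genes was not counted. Each of the 12 genes was taken as log2 CPM from its mean over the 0.3 nM libraries. The median was 0.97, 0.83 and 0.34 in 1.2 nM replicates 1, 2 and 3. It was -0.10, 0.17 and -0.07 in the 0.3 nM replicates and -0.22, -0.13 and -0.22 in DMSO. The 0.3 nM values lie near 0 since their own mean is the reference. All 1.2 nM libraries were thus above all at 0.3 nM, and the 1.2 nM libraries spanned 0.34 to 0.97.

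**Figure D2:**
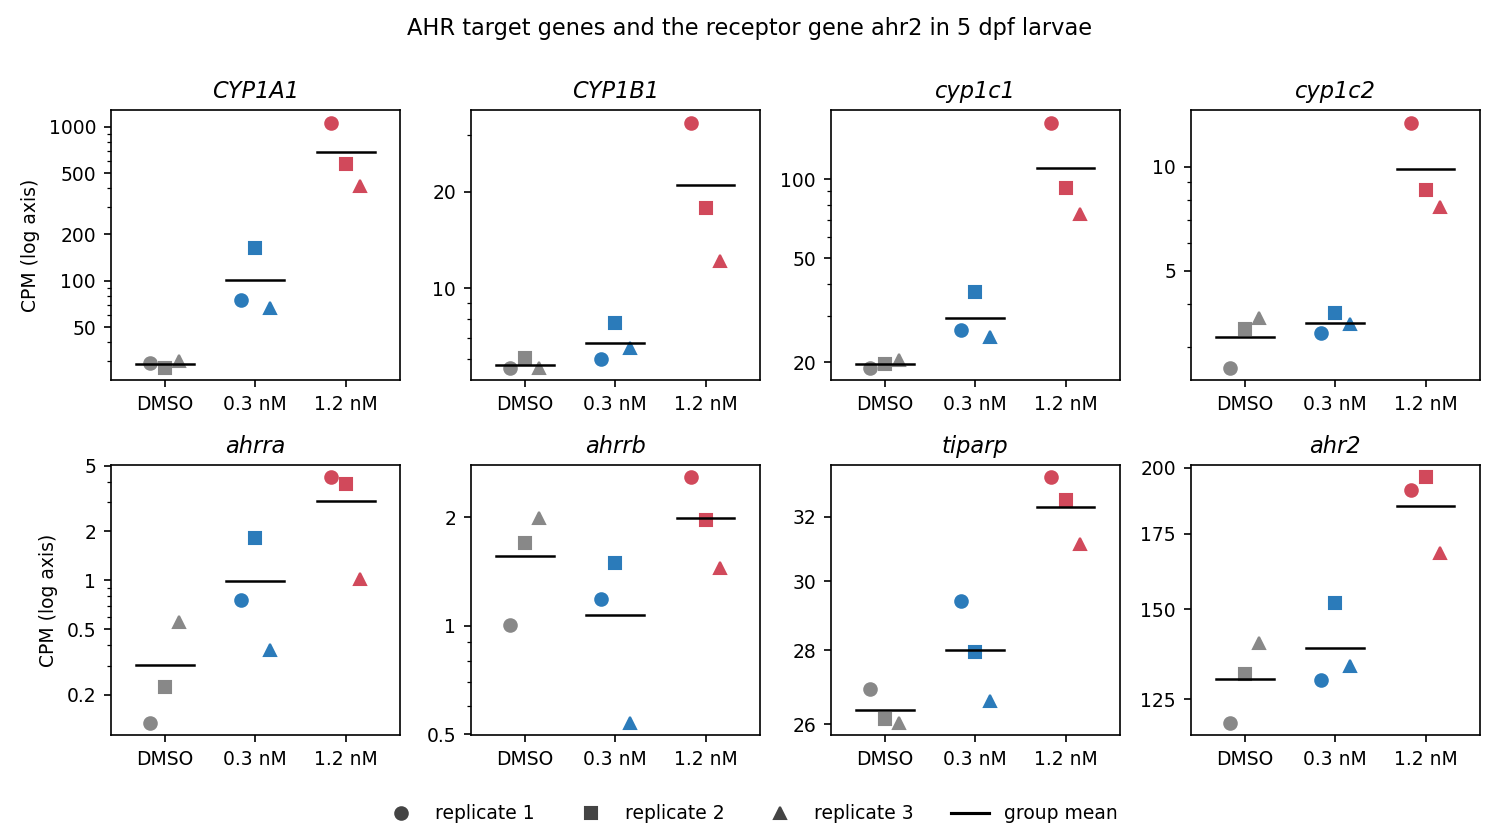
Level in CPM (vertical log axes, a separate range for each gene) of 7 AHR target genes and the receptor gene ahr2 in 5 dpf larvae after DMSO, 0.3 nM or 1.2 nM PCB126 (horizontal axis), with 1 point per library, marker shape for the replicate number and a line at the mean of 3. The 4 CYP1 genes, tiparp and ahr2 have every 1.2 nM point above every 0.3 nM point, and the 1.2 nM points of CYP1A1 span 411 to 1067 CPM.

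Of the receptor genes, ahr2 (ENSDARG00000021833) was at 130.1, 152 and 134 CPM at 0.3 nM and 191, 196 and 168 CPM at 1.2 nM, against 119, 132 and 140.2 CPM in DMSO. The doses did not overlap, while 0.3 nM overlapped DMSO. The log2 difference was 0.42 (SE 0.08, adjusted p = 0.269), so ahr2 was not called. The other receptor genes ahr1a and ahr1b were at 0.12 (SE 0.18) and 0.13 (SE 0.10), and the partner genes arnt and ARNT2 at 0.08 (SE 0.10) and 0.14 (SE 0.07).

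Among the genes of the proteins that hold the receptor, HSP90AA1 (ENSDARG00000024746) fell in RNA. Its level was 129, 103 and 122 CPM at 0.3 nM and 81.2, 65.3 and 82.1 CPM at 1.2 nM. The DMSO larvae were between these, at 105, 104 and 98.5 CPM, below replicates 1 and 3 at 0.3 nM and above all 3 libraries at 1.2 nM. The level was 1.55-fold lower at 1.2 nM, a log2 difference of -0.63 (SE 0.09, 95% confidence interval -0.83 to -0.43, adjusted p = 0.0368, edgeR quasi-likelihood test). The call was lost without 0.3 nM replicate 1 or 3 (adjusted p = 0.332 and 0.317), without 1.2 nM replicate 1 (0.101), and without DMSO replicate 1, 2 or 3 (0.101, 0.0966 and 0.135). In an edgeR fit of the 6 exposed larval libraries alone it was lost too (adjusted p = 0.325).

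A second HSP90 gene of the same type, hsp90aa1.1, known in zebrafish for folding muscle myosin, was at 74.3, 61.4 and 82.1 CPM at 0.3 nM and 59.0, 28.5 and 60.3 CPM at 1.2 nM. The groups did not overlap, with 1.2 nM replicate 2 far below the others, and the log2 difference of -0.56 (SE 0.30, adjusted p = 0.993) was not called. The names table gives one of these HSP90 genes the human symbol, and the handling of reads fitting both is not stated. The constitutive HSP90AB1 had far more RNA than either, at 3410, 3352 and 3171 CPM at 0.3 nM and 3152, 3263 and 3030.5 CPM at 1.2 nM. The doses overlapped, with a log2 difference of -0.07 (SE 0.06). The p23 genes, both listed as PTGES3, were at -0.17 (SE 0.11) and -0.18 (SE 0.20). In all, the list of AHR receptors and partners had 16 genes tested, 1 called lower (over all genes tested, 0.023% were called) and a median of 0.03. Without overlap, 2 were higher and 3 lower (31.2% of the list, beside 9.71% of all genes).

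HSP90AA1 was also the gene called among the heat shock proteins and chaperones, which fold other proteins (over all genes tested, 0.023% were called). Of 43 such genes tested, 36 had a negative log2 difference, 9 did not overlap and were all lower at 1.2 nM (20.9% of the list, beside 9.71% of all genes), and the median was -0.19. SERPINH1 (ENSDARG00000019949), for the collagen chaperone HSP47, was at 45.1, 41.3 and 41.3 CPM at 0.3 nM and 22.4, 18.8 and 26.9 CPM at 1.2 nM. DMSO larvae ranged from 28.3 to 46.5 CPM, above every 1.2 nM library and around the 0.3 nM ones, and the log2 difference was -0.91 (SE 0.18, adjusted p = 0.515). A second gene with that symbol (ENSDARG00000075954), named after its values were seen, was at -0.28 (SE 0.11) without overlap. Without DMSO replicate 2, the first SERPINH1 gene passed the test (-0.91, adjusted p = 0.0346). The co-chaperone genes dnaja1, at 35.7, 28.9 and 33.7 against 28.2, 26.8 and 27.7 CPM (-0.25, SE 0.08), and CHORDC1 (-0.34, SE 0.12) were not called. By library, the list's median deviation from the 0.3 nM mean was 0.05, -0.15 and 0.12 at 0.3 nM and -0.10, -0.32 and -0.08 at 1.2 nM. Replicate 2 at 0.3 nM lay below replicates 1 and 3 at 1.2 nM, so the doses overlapped in this median. The lowest 1.2 nM library, replicate 2, is the one set apart by the first principal component; its part in the result was not tested, and without it the list's median was -0.09.

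P4HA2 (ENSDARG00000010085), a collagen prolyl hydroxylase subunit gene and so, like SERPINH1, a gene of collagen folding, was at 15, 14.6 and 16 CPM at 0.3 nM and 10.5, 11.1 and 12.1 CPM at 1.2 nM. All 1.2 nM libraries were below all others, DMSO included (13.2 to 14.6 CPM). The rule by which P4HA2 was named required no overlap between the doses. Its log2 difference of -0.43 (SE 0.09, adjusted p = 0.332) was not called. The list of cartilage and bone genes as a whole stood near 0, with a median of -0.03 over 40 genes, 0 called and 2 without overlap (5%, beside 9.71% of all genes), both higher.

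The smallest p of all genes was that of rorcb (ENSDARG00000017780), which encodes a nuclear receptor of the ROR family; in mammals these receptors activate the clock gene Bmal1. Its level was 32.7, 29.7 and 28.7 CPM at 0.3 nM and 48.1, 47.8 and 46.5 CPM at 1.2 nM. DMSO larvae were at 31.4, 31.2 and 37.2 CPM, so the 0.3 nM libraries overlapped DMSO and the 1.2 nM libraries lay close together above both. The gene rose 1.56-fold (log2 difference 0.64, SE 0.08, 95% confidence interval 0.47 to 0.81, adjusted p = 0.0103, edgeR quasi-likelihood test, 3 against 3). Without 0.3 nM replicate 3 the adjusted p was 0.0544, at a log2 difference of 0.60.

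No other clock gene was called. The related rorca was at 61.4, 63.3 and 57.0 CPM against 75.5, 78.5 and 69.8 CPM (0.30, SE 0.07, adjusted p = 0.478). The clock-controlled repressor gene nfil3-5 was at 38.5, 38.5 and 40.3 against 48.8, 50.1 and 49.5 CPM (0.34, SE 0.07, adjusted p = 0.332). BMAL1 (ENSDARG00000006791), the core activator, was at 24.1, 24.9 and 22.5 against 29.0, 29.6 and 29.7 CPM (0.31, SE 0.07, adjusted p = 0.519). In each of these 3 genes every 1.2 nM library was above every 0.3 nM and every DMSO library. For 1.2 against 0.3 nM, the rule that named these genes required this. The gene of the BMAL1 partner CLOCK (ENSDARG00000011703), named after its values were seen, was at 0.29 (SE 0.09), and a second BMAL1 gene (ENSDARG00000035732), chosen likewise, at 0.33 (SE 0.09).

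The gene cry5, a member of the cryptochrome and photolyase family, was at 40.4, 39.1 and 37.5 CPM against 31.8, 28.3 and 30.9 CPM (-0.36, SE 0.07, adjusted p = 0.315). The light-induced repressor gene PER2 (ENSDARG00000034503), also named after its values were seen, was at -0.20 (SE 0.06) without overlap. The circadian clock list had 45 genes tested of 46, with 1 called higher (over all genes tested, 0.023% were called) and a median of 0.07. Without overlap, 12 were higher and 4 lower (35.6% of the list, beside 9.71% of all genes). Since the hour of collection of each group is not given, a difference in hour and a difference of dose cannot be told apart for these genes.

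**Figure D3:**
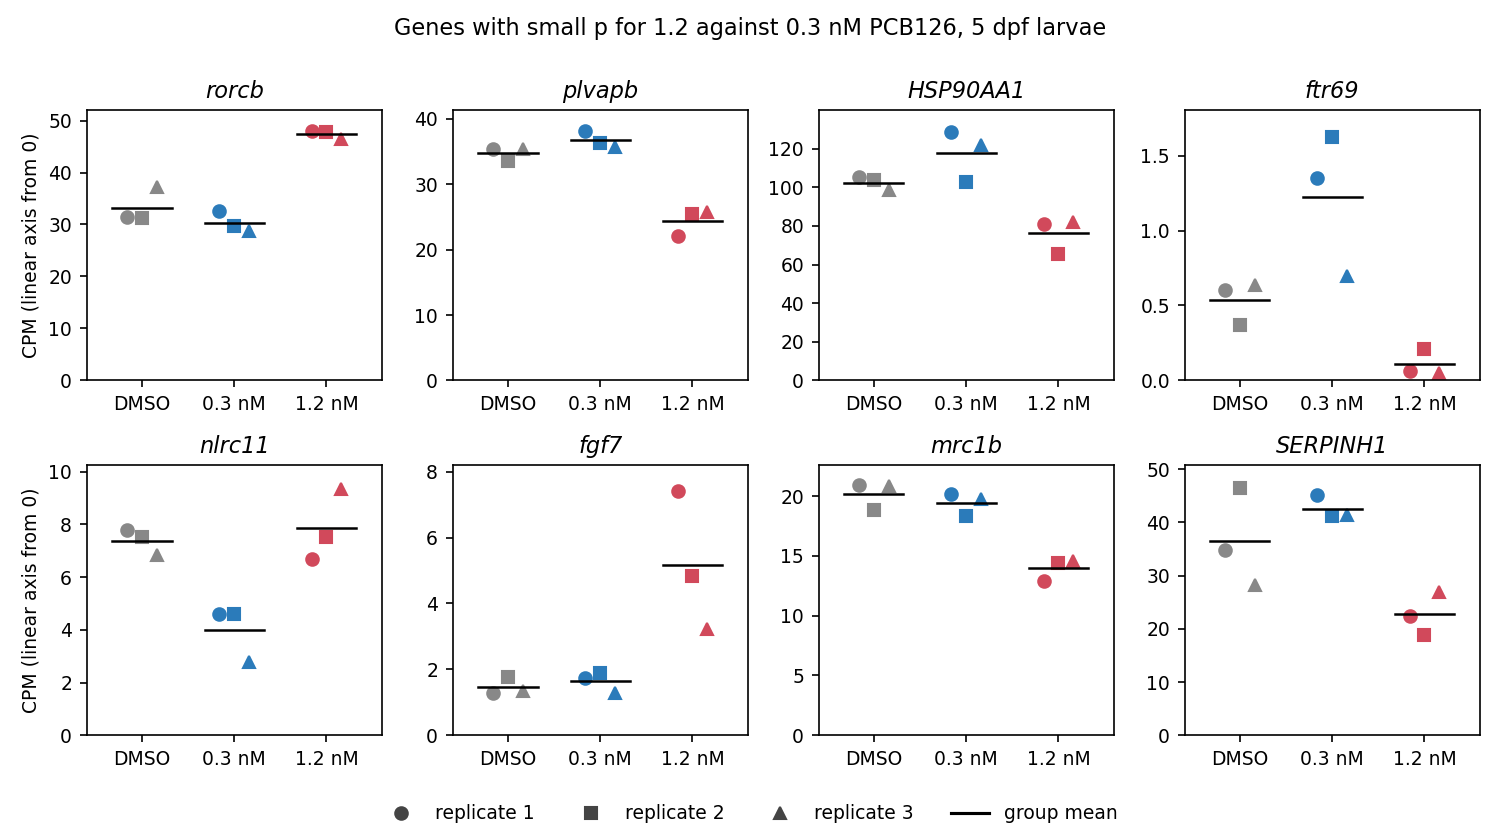
Level in CPM (vertical linear axes from 0, a separate range for each gene) of 8 genes with small p for 1.2 against 0.3 nM in 5 dpf larvae, by treatment (horizontal axis), with 1 point per library, marker shape for the replicate number and a line at the mean of 3. For rorcb, plvapb, mrc1b and fgf7 the 1.2 nM points stand apart from both other groups, while for nlrc11 the 0.3 nM points stand below the other 2 groups.

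Of the blood and lymph vessel genes, the one called was plvapb (ENSDARG00000045003), which fell and whose product forms the diaphragms of fenestrated endothelium. Its level was 38.2, 36.3 and 35.7 CPM at 0.3 nM and 22, 25.4 and 25.7 CPM at 1.2 nM, with DMSO larvae at 35.4, 33.5 and 35.3 CPM. Every 1.2 nM library was below the other 6 larval libraries. The level was 1.5-fold lower at the higher dose (log2 difference -0.59, SE 0.08, 95% confidence interval -0.75 to -0.43, adjusted p = 0.0103, edgeR quasi-likelihood test). The call was lost without 0.3 nM replicate 1 (adjusted p = 0.169) or 1.2 nM replicate 1 (0.056). In an edgeR fit of the 6 exposed larval libraries alone it was lost too (adjusted p = 0.0612).

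Other endothelial genes were not called in either direction. The mannose receptor gene mrc1b was at 20.1, 18.4 and 19.7 CPM against 12.9, 14.4 and 14.6 CPM (-0.47, SE 0.09, adjusted p = 0.171), and MRC1 (ENSDARG00000102100) at 29.7, 28.3 and 29.9 against 22, 24.1 and 25.0 CPM (-0.31, SE 0.08, adjusted p = 0.642). The stabilin gene stab1 was at 36.1, 38.1 and 41.6 against 32.0, 31.5 and 30.0 CPM (-0.31, SE 0.08), and the hyaluronan receptor gene lyve1a at 2.59, 2.14 and 2.74 against 1.08, 1.70 and 1.49 CPM (-0.80, SE 0.21). The last 2 were named after their values were seen. None of these 4 genes overlapped between the doses. The rule by which mrc1b and MRC1 were named required this, and stab1 and lyve1a were chosen with their values known, so it adds no support.

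The gene of the clotting factor von Willebrand, vwf, was at 4.91, 6.62 and 6.29 CPM against 9.76, 10.8 and 7.90 CPM (0.68, SE 0.15, adjusted p = 0.332). The shear-responsive factor gene klf2b was at 30.7, 31.0 and 27.1 against 43.2, 40.2 and 35.9 CPM (0.43, SE 0.09, adjusted p = 0.317), and the pericyte and vessel factor gene foxf2a, named after its values were seen, at 10.3, 12.0 and 10.6 against 16.8, 15.5 and 12.9 CPM (0.45, SE 0.12). The doses did not overlap in any of the 3, which the rule that named vwf and klf2b required. The pan-endothelial genes cdh5 and kdrl, by contrast, overlapped, at 36.1 to 38.4 against 35.5 to 38.7 CPM and 45.4 to 54.4 against 45.4 to 50.4 CPM. Of 44 endothelial genes tested, 1 was called lower (over all genes tested, 0.023% were called), and the median was -0.01. Without overlap, 4 were higher and 5 lower (20.5% of the list, beside 9.71% of all genes).

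The largest fall was that of ftr69 (ENSDARG00000052646), of the finTRIM family, a fish-specific group of TRIM proteins whose members include genes induced by virus infection. It rested on few reads, 25, 25 and 13 at 0.3 nM and 1, 4 and 1 at 1.2 nM, with 9, 5 and 8 in the DMSO larvae. In CPM these are 1.35, 1.62 and 0.699 at 0.3 nM, 0.0599, 0.212 and 0.0481 at 1.2 nM, and 0.603, 0.368 and 0.635 in DMSO. The 3 treatments did not overlap, and DMSO lay between the doses. The fitted log2 difference was -3.41 (SE 0.53, 95% confidence interval -4.54 to -2.29, adjusted p = 0.0368, edgeR quasi-likelihood test), and at such counts its size depends on the fit. The call was lost without 0.3 nM replicate 1 or 2 (adjusted p = 0.332 and 0.123), without 1.2 nM replicate 1 or 3 (0.244 and 0.117), and without any 1 of the DMSO libraries (0.0574 to 0.106). In an edgeR fit of the 6 exposed larval libraries alone it was lost too (adjusted p = 0.147).

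Only 36 of the 70 finTRIM genes listed had enough reads for a test. Of these, 1 was called lower (over all genes tested, 0.023% were called). A positive log2 difference was found for 24, and the median was 0.04. Without overlap, 1 was higher and 3 were lower (11.1%, near the 9.71% of all genes). The finTRIM genes resemble one another, and the handling of reads fitting several is not stated. Among the others, ftr19 was at 2.86, 3.11 and 2.58 against 1.92, 1.70 and 1.64 CPM (-0.70, SE 0.22) and ftr73 at 0.216, 0.324 and 0.484 against 0.718, 0.583 and 1.25 CPM (1.32, SE 0.44), neither called. The gene nlrc11, of the NLR family of cytoplasmic immune sensors, had the smallest p of the genes not called. It was at 4.59, 4.61 and 2.80 CPM at 0.3 nM, 6.70, 7.53 and 9.34 CPM at 1.2 nM and 7.77, 7.51 and 6.83 CPM in DMSO. Here the 0.3 nM libraries were apart from both other groups, which overlapped. Its log2 difference was 0.99 (SE 0.18, adjusted p = 0.16), and those from DMSO, which share these libraries, were -0.89 (SE 0.18) at 0.3 nM and 0.10 (SE 0.17) at 1.2 nM. Of 12 NLR genes tested, none was called, 2 were non-overlapping higher and 2 lower (33.3%, beside 9.71% of all genes), and the median was -0.001.

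Outside the lists, fgf7, a growth factor gene of the connective tissue, was at 1.73, 1.88 and 1.29 CPM at 0.3 nM, 7.42, 4.82 and 3.23 CPM at 1.2 nM and 1.27, 1.77 and 1.35 CPM in DMSO. It rested on 24 to 32 reads a library at 0.3 nM and 67 to 124 at 1.2 nM. As for the CYP1 genes, replicate 1 was the highest and replicate 3 the lowest at 1.2 nM. The log2 difference was 1.64 (SE 0.29, adjusted p = 0.171), and without 1.2 nM replicate 3 it was 1.90 and passed the test (adjusted p = 0.00374). The growth arrest gene GADD45A was at 28.3, 24.1 and 25.7 against 19.9, 20.6 and 18 CPM (-0.42, SE 0.09). The transcription factor gene RUNX3, a member of the cartilage and bone list, was at 14.7, 14.3 and 13.9 against 18, 18.8 and 18 CPM (0.35, SE 0.08). Neither was called, and neither overlapped between the doses, which the rule that named them required.

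Among other enzymes of detoxification, the UDP-glucuronosyltransferase genes ugt1b1 and ugt1b5 were at 8.69, 11.5 and 10.9 against 18.3, 14 and 14.5 CPM (0.59, SE 0.13, adjusted p = 0.348) and at 10.9, 11 and 10.3 against 16.8, 12.7 and 14.8 CPM (0.46, SE 0.11, adjusted p = 0.591). The ugt1b genes lie close in sequence, and the handling of reads that fit both is not stated. The P450 gene cyp2aa12 was at 14.8, 15.6 and 13.6 against 20.9, 22 and 16.9 CPM (0.44, SE 0.11, adjusted p = 0.642). In each of these 3 genes the doses did not overlap, which the rule that named ugt1b1 required. Of 41 transferase genes, 69 P450 genes outside the CYP1 family and 39 genes of the Nrf2 and glutathione list, none was called, and their medians were -0.01, 0.02 and 0.01. The shares of these lists without overlap were 9.76%, 7.25% and 5.13%, near or below the 9.71% of all genes. Within the Nrf2 list, nfe2l2b, a paralog of the Nrf2 gene, was at 10.6, 9.67 and 5.81 against 17.7, 11 and 12.3 CPM (0.65, SE 0.23).

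Immediate early genes, which respond within minutes to stimulation of a cell, had 28 of 34 members at a negative log2 difference, a median of -0.14 and none called. NPAS4, induced by neuronal activity, was at 20.1, 16.5 and 18.5 CPM against 12.5, 10.2 and 13.5 CPM (-0.60, SE 0.13, adjusted p = 0.332), and JUNB at 20.5, 18.5 and 19.5 against 17.4, 14.1 and 16.9 CPM (-0.27, SE 0.10). In both, the doses did not overlap, which the rule that named NPAS4 required. In the list as a whole, 1 gene was non-overlapping higher, klf2b, and 6 were lower (20.6%, beside 9.71% of all genes).

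The cell cycle list had 59 of 66 members at a negative log2 difference, with a median of -0.13 and none called. Only 5 did not overlap, all lower (7.58%, beside 9.71% of all genes), and the genes shown next are among them. CCNB1, for cyclin B1, was at 16.7, 19.7 and 22 CPM against 15.7, 12.4 and 15.9 CPM (-0.41, SE 0.13), and the replication helicase gene MCM7 at 53.1, 49.8 and 53.0 against 47.5, 46.0 and 45.6 CPM (-0.16, SE 0.07). The list's median deviation from the 0.3 nM mean was -0.06, -0.09 and 0.17 in the 0.3 nM libraries. At 1.2 nM it was -0.03, -0.40 and 0.04, so 1.2 nM replicate 2 was the lowest and the other libraries overlapped. Without that replicate the median was -0.00093.

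Exocrine pancreas genes, for digestive enzymes, were mostly on the other side, with 21 of 24 positive, a median of 0.25 and none called. The elastase gene ela2l was at 631, 1003 and 557 CPM at 0.3 nM and 932, 1186 and 748 CPM at 1.2 nM (0.39, SE 0.26), overlapping. The list's median deviation from the 0.3 nM mean was highest in replicate 2 of both doses, 0.36 at the lower dose and 0.52 at the higher. Only CELA1 was without overlap (4.17% of the list, beside 9.71% of all genes), lower at 1.2 nM (-0.48, SE 0.19). Oocyte and germ cell genes, with 20 of 39 members tested and at levels of few reads, had 15 negative and a median of -0.35, with buc at -1.02 (SE 0.55). Without overlap, 1 was higher and 3 were lower (20%, beside 9.71% of all genes).

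The other lists had no gene called. Liver had a median of 0.01 over 56 genes, skeletal muscle -0.06 over 48, heart -0.07 over 27, photoreceptors and lens 0.06 over 82, macrophages and neutrophils -0.02 over 25, and ribosomal proteins -0.03 over 83. The embryonic and adult globins, with 4 of 8 tested, were further from 0, at -0.21, and all 4 overlapped between the doses. By library, their median deviation from the 0.3 nM mean was 0.174, -0.616 and 0.465 at 0.3 nM. At 1.2 nM it was -0.152, -0.176 and -0.107, within the span of the 0.3 nM libraries. In skeletal muscle, mybpc2b, for a fast myosin-binding protein, was at 90.9, 84.3 and 86.3 against 73.0, 74.5 and 73.6 CPM (-0.24, SE 0.06, adjusted p = 0.669), and among photoreceptor genes ARR3 (ENSDARG00000098475), for cone arrestin, was at 139, 179 and 185 against 229, 225 and 200.1 CPM (0.38, SE 0.10). Neither overlapped between the doses, which the rule that named mybpc2b required. Without overlap were 12.5% of the skeletal muscle list and 6.1% of the photoreceptor and lens list, beside 9.71% of all genes. In this ARR3 gene the DMSO larvae (193 to 222 CPM) were above all 3 libraries at 0.3 nM. A second ARR3 gene (ENSDARG00000056511) overlapped between the doses, at 530 to 678 CPM at 0.3 nM and 605 to 688 CPM at 1.2 nM.

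**Figure D4:**
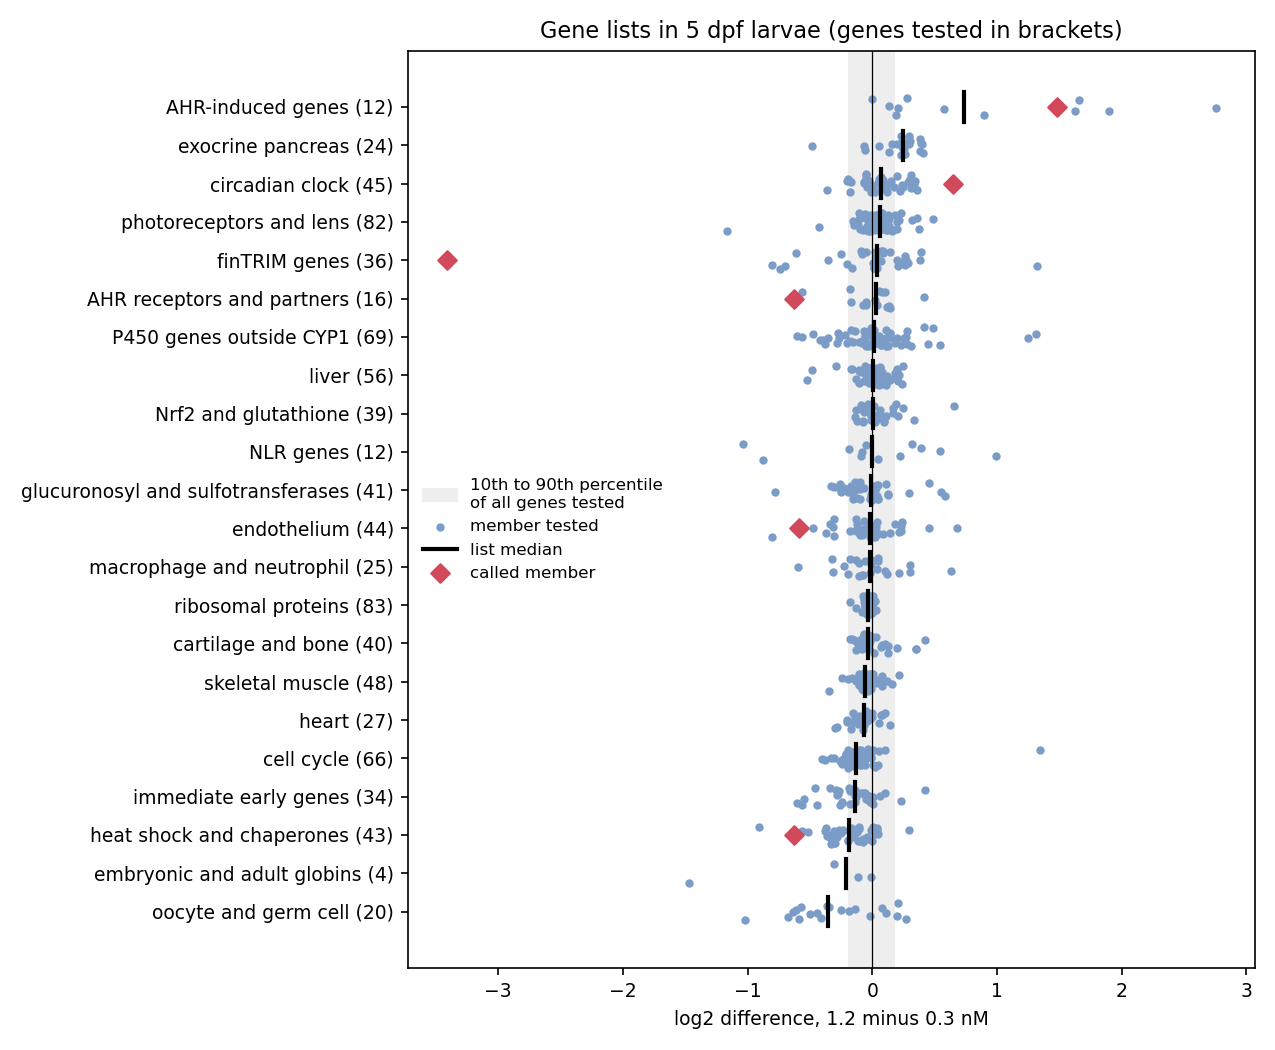
Log2 difference between 1.2 and 0.3 nM in 5 dpf larvae (horizontal axis) for the tested members of 22 gene lists (rows, sorted by median, vertical scatter without meaning), with a bar at each list's median and red diamonds for called members. The grey band runs from the 10th to the 90th percentile of all genes tested, -0.19 to 0.18, and the medians of AHR-induced genes (0.74), exocrine pancreas (0.25), heat shock and chaperones (-0.19), globins (-0.21) and oocyte and germ cell genes (-0.35) lie outside it.

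The levels in DMSO larvae place the called genes on the dose scale. These differences from DMSO share libraries with the dose difference and are given as values only. For cyp1c2 the log2 difference from DMSO was 0.13 (SE 0.24) at 0.3 nM and 1.61 (SE 0.21) at 1.2 nM, and for CYP1A1 it was 1.82 (SE 0.51) and 4.58 (SE 0.55). For rorcb it was -0.13 (SE 0.08) and 0.51 (SE 0.08), and for plvapb 0.08 (SE 0.08) and -0.51 (SE 0.08). HSP90AA1 was at 0.20 (SE 0.09) and -0.43 (SE 0.10) and ftr69 at 1.16 (SE 0.41) and -2.25 (SE 0.65), so in both genes the mean of 0.3 nM was above DMSO and that of 1.2 nM below it. SERPINH1 had values of 0.22 (SE 0.17) and -0.69 (SE 0.18).

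The same pair of doses was compared in the brains of adults at 4 months, raised in clean water after the embryonic exposure, with 3 libraries a dose. Brain RNA was extracted by another method than larval RNA, and the tissues differ as well as the ages, so these cannot be told apart. The difference between the larval and the brain dose difference was tested in 1 fit of all 24 libraries and was called for 17 of 22545 genes, or 0.0754%. Of the genes named here by rule, 3 were among them: HSP90AA1, P4HA2 and CYP1B1.

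HSP90AA1 was lower at 1.2 nM in larvae and higher in brain, where it stood at 114, 101 and 85.3 CPM at 0.3 nM and 146, 179 and 142 CPM at 1.2 nM. The brain doses did not overlap, and the log2 difference there was 0.64 (SE 0.16). Larvae minus brain was -1.26 (SE 0.22, adjusted p = 0.0237, edgeR quasi-likelihood test), each the higher minus the lower dose. The call was lost without 0.3 nM larval replicate 1 or 3 (adjusted p = 0.0901 and 0.0995), without 1.2 nM larval replicate 1 or 2 (0.0501 and 0.103), without brain 0.3 nM replicate 3 (0.0828) and without brain 1.2 nM replicate 2 (0.0865).

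P4HA2 was at 8.38, 7.04 and 6.29 CPM in brain at 0.3 nM and 9.95, 8.48 and 9.82 CPM at 1.2 nM, non-overlapping, with a log2 difference of 0.37 (SE 0.11) where larvae had -0.43 (SE 0.09). Larvae minus brain was -0.80 (SE 0.15, adjusted p = 0.0398). CYP1B1 was at 20.4, 19.3 and 26.9 CPM in brain at 0.3 nM and 20.1, 21.4 and 20.1 CPM at 1.2 nM, with overlap and a log2 difference of -0.11 (SE 0.22). Larvae minus brain was 1.74 (SE 0.33, adjusted p = 0.0423). The fit of all 24 libraries estimates 1 spread per gene over all groups, brain and embryos included. In it the larval dose difference of CYP1B1 had an SE of 0.24, beside 0.37 in the larval fit. The p-value for CYP1B1 thus does not measure the spread of the larval libraries alone. The P4HA2 call was lost without any 1 of the 0.3 nM larval libraries, 1.2 nM larval replicate 1 or 2, brain 0.3 nM replicate 2 or 3 or brain 1.2 nM replicate 1 or 3 (adjusted p = 0.0567 to 0.140). The CYP1B1 call was lost without any 1 of the 0.3 nM larval libraries, 1.2 nM larval replicate 2, brain 0.3 nM replicate 3 or any 1 of the brain 1.2 nM libraries (0.0597 to 0.144). It was also lost without a filter on low counts (0.0678) and with the replicate block within each age (0.057).

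The next genes by this test were not called: SERPINH1 (-1.84, SE 0.39, adjusted p = 0.105), rorcb (0.73, SE 0.18, adjusted p = 0.144) and ahr2 (0.51, SE 0.12, adjusted p = 0.144). In brain, rorcb was at 96.8, 112 and 121 CPM at 0.3 nM and 86.7, 107 and 119 CPM at 1.2 nM, overlapping (-0.08, SE 0.12), and ahr2 was at -0.09 (SE 0.09). CYP1A1 in brain was at 0.576, 0.359 and 0.518 CPM against 1.11, 0.657 and 0.830 CPM, a log2 difference of 0.83 (SE 1.08) at very low levels, and larvae minus brain was 1.93 (SE 1.26, adjusted p = 0.737).

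**Figure D5:**
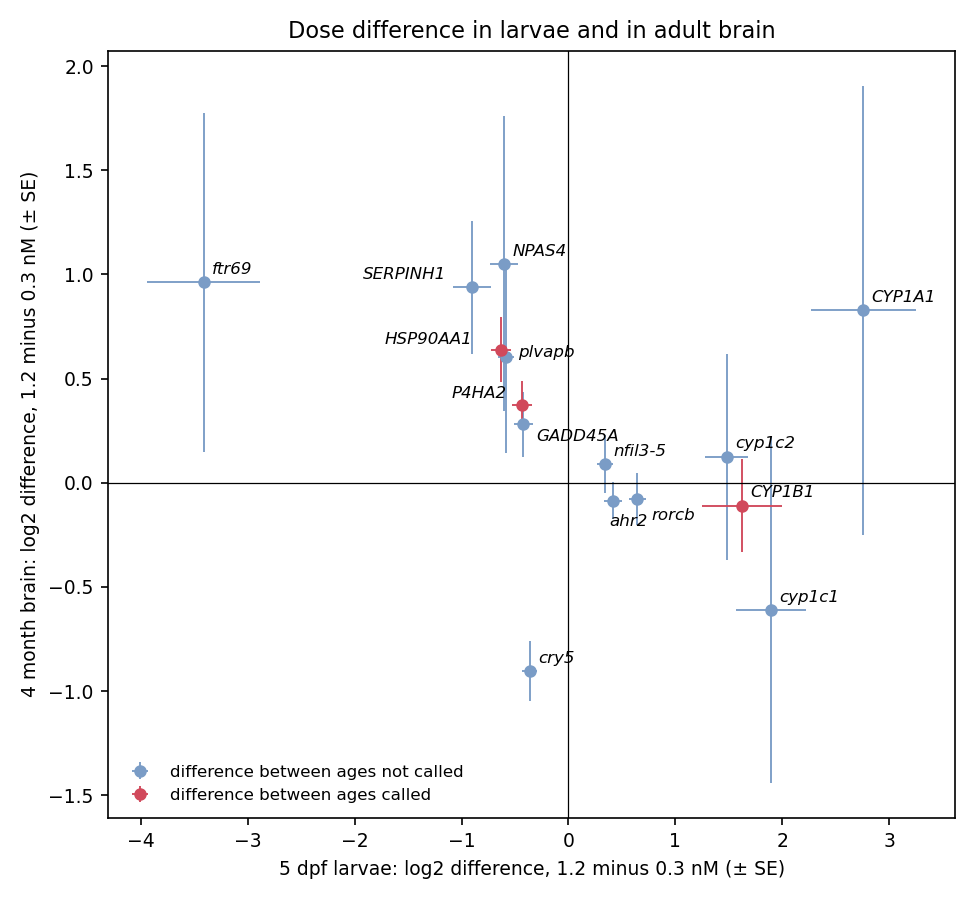
Log2 difference between 1.2 and 0.3 nM in 5 dpf larvae (horizontal axis) and in 4 month brain (vertical axis) for 15 named genes, with bars of 1 SE. Red points are HSP90AA1, P4HA2 and CYP1B1, whose dose difference differed between larvae and brain; HSP90AA1 is at -0.63 in larvae and 0.64 in brain.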

How the data were processed

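Total RNA of whole larvae was purified with a column kit, depleted of ribosomal RNA and sequenced from a single end over 50 bases in stranded libraries, per the labels' protocols. The authors deposited 1 count table per library, with raw read counts per gene. The submitters' processing notes name FastQC, STAR, HTSeq, edgeR and the build GRCz10. The sources used here do not give tool versions or a gene annotation. Union mode and reverse strandedness are read from the names of the tables, and union mode drops reads that overlap more than 1 gene at a position. The handling of reads that align to several places is not stated. No row lacks a gene name. Each file lists 32105 Ensembl genes, of which 26269 received a symbol from the names tables. These write many zebrafish genes under the human ortholog's symbol in capitals, so 1 symbol can stand for several genes, whose IDs are then given.

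The tests on these counts used edgeR 4.0.16 (R 4.3.3; filterByExpr, TMM, robust quasi-likelihood test, Benjamini-Hochberg adjustment over all genes tested, called at an adjusted p under 0.05). The fit took all 9 larval libraries, 3 in each group, and the contrast 1.2 minus 0.3 nM. The difference from adult brain used a fit of all 24 libraries, with 1 spread per gene over all groups. The SE was obtained as the size of the log2 difference over the root of F. CPM used TMM-adjusted library sizes, and log2 CPM had a prior count of 2. The mean log2 CPM in the rule for named genes instead had a small constant added to the CPM. The script was tested on simulated data.

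The comparison, the 22 gene lists (948 of 1017 entries matched, to 970 genes) and the rule for named genes were chosen with earlier results of these data known. The rule takes every called gene, the AHR-induced genes and the AHR receptors and partners, the 12 smallest p in each direction without overlap at a mean log2 CPM of at least 1, up to 4 members of each other list by p, and 6 genes of the brain comparison. Symbols that are clone names were left out; capitals followed by digits counted as clone names only with at least 5 digits. Genes named outside the rule are marked as such. No list was tested as a set. No genome or promoter sequence was used here, so no sequence is shown. Alternatives were RLE normalization, no filter, a non-robust fit, a replicate block, other sets of libraries, DESeq2 1.42.0 and leaving out each library.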

Additional observations from a re-analysis of the deposited data

Results flagged for a closer look

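The response to dose differed between whole larvae at 5 dpf and adult brain at 4 months, by the test of that difference in the fit of all 24 libraries, for 3 of the named genes. For HSP90AA1 the log2 difference between 1.2 and 0.3 nM was 1.26 lower in larvae than in brain, written as -1.26, and for P4HA2 the value was -0.80. In both genes all 3 larval libraries at 1.2 nM were below all 3 at 0.3 nM, and all 3 brain libraries at 1.2 nM were above all 3 at 0.3 nM. For P4HA2 the larval part was required by the rule that named the gene, so it adds no support. For CYP1B1 the value was 1.74, with higher levels at 1.2 nM in larvae and overlapping levels in brain. Of 16 alternatives, the call was lost in 6 for HSP90AA1, 9 for P4HA2 and 10 for CYP1B1.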

How the results depend on the processing

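The count of 5 called genes was within 1.5 times of itself with RLE normalization, without a filter, without robust estimation and with the replicate block. Without robust estimation, though, 3 of 5 were shared, with ftr69 and HSP90AA1 lost (adjusted p = 0.0503 for both) and CYP1A1 and cyp1c1 gained (0.0108 for both), and with the block 3 of 4 were shared. The count was 1 in a fit of the 6 exposed larval libraries alone. In that fit rorcb was kept (adjusted p = 0.0249), and plvapb, cyp1c2, ftr69 and HSP90AA1 were lost (0.0612 to 0.325). The count was 3 in the fit of all 24 libraries and 12 with DESeq2 (all 5 among them). It was between 1 and 9 when 1 library was left out, the highest without 1.2 nM replicate 3. Of 16 alternatives, the call was lost in 2 for rorcb, 4 for plvapb, 7 for cyp1c2, 9 for HSP90AA1 and 11 for ftr69. The count of 17 genes whose dose difference differed from brain was 26 with the replicate block within each age and between 5 and 40 when 1 library was left out; under that block CYP1B1 was lost (adjusted p = 0.057) and rorcb gained (0.013). With the replicate block the call was lost for cyp1c2 and ftr69 (adjusted p = 0.0575 for both) and gained for fgf7 (0.0278). The labels do not say what a replicate number links. Since the link is not stated, the numbers were not taken as pairs in the main fit. Deviations of same-numbered larval libraries of both doses correlated at 0.0742, 0.269 and 0.218, and the other pairs at -0.24 to 0.0193. Each library thus correlated best with its own number. Whether same-numbered libraries share a factor was not tested.

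In the fit of all 24 libraries the calls of rorcb, plvapb, ftr69 and HSP90AA1 were lost (adjusted p = 0.139 to 0.973), cyp1c2 was kept, and CYP1A1 and CYP1B1 were gained (0.0187 for both). Without a filter nlrc11 was gained (0.0216). DESeq2 called CYP1A1, CYP1B1, cyp1c1, ahr2, fgf7, nlrc11 and SERPINH1 as well. Of 113 named genes, 96 kept their direction and their side of the threshold in every alternative. The 5 that turned direction were not called: CUL4A (-0.058 to 0.095 when 1 library was left out), CUL4B (-0.028 to 0.062), hbae1.3 (-0.37 to 0.13), hbae3 (-0.17 to 0.092, and 0.0055 with the replicate block) and gstp1.2 (-0.081 to 0.097, and 0.0045 in the fit of all 24 libraries). The cause was not tested. The AHR-induced median ranged from 0.50 to 1.05. No scaling moved the median of all genes by more than 0.1. The planned share of promoters with the AHR response element was not run, since no promoter sequence was used here. The levels of ahrra, ahrrb, ftr69 and the germ cell genes rest on few reads.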
